A study of Mus musculus with 8 samples.

Results

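The 10 genes described here are the interferon-induced *Ifit* genes *Ifit1*, *Ifit1bl1*, *Ifit2*, *Ifit3* and *Ifit3b*, the ISG15 pathway genes *Isg15*, *Usp18* and *Herc6*, and the neighbouring antiviral genes *Rsad2* and *Cmpk2*. They were taken by name from the gene table. All 10 were found among 50615 genes, and all 10 were among the 17625 genes with a summed count of at least 10 over the 8 libraries, which were the genes tested. The libraries were made from poly(A) RNA of bone marrow-derived macrophages (BMDMs), that is, macrophages raised in culture from mouse bone marrow. All mice were C57BL/6, and both genotypes carried the floxed *Ncoa6* allele (*Ncoa6* fl/fl). The *Ncoa6*-KO BMDMs, named MKO in the table, came from *Ncoa6* fl/fl *LysM* Cre mice. The *Ncoa6*-sufficient BMDMs, named Flox in the table and WT in the sample labels, came from *Ncoa6* fl/fl mice without Cre. *LysM* is another name for *Lyz2*, the lysozyme gene of myeloid cells, and its locus drove Cre. Only the *Ncoa6*-KO mice carried Cre, so effects of Cre at this locus and of *Ncoa6* loss cannot be told apart here. The knockout effect below means the difference between these genotypes. Differentiation took 6 days in M-CSF (20 ng/ml). One set of cultures then stayed in medium alone, while the other received LPS (100 ng/ml) over 4 h and then monosodium urate crystals (200 µg/ml) over 2 h, written LPS + MSU. Each genotype and culture condition had 2 libraries, which the methods describe as coming from different mice. Values are normalized counts, the expected counts of a gene scaled to the mean effective library size over the 8 libraries, and library 1 is given before library 2 throughout.

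Type I interferon, or LPS acting through interferon-β, activates a transcription factor complex that includes STAT2 and IRF9. This complex binds a DNA element called the ISRE in the promoters of interferon-stimulated genes. The IFIT proteins bind viral RNA and limit its translation. ISG15 is a ubiquitin-like protein that is joined to other proteins (ISGylation) by the activating enzyme UBA7, the conjugating enzyme UBE2L6 and a ligase, which in mice is HERC6. USP18 removes ISG15 from its targets and also restrains signalling at the type I interferon receptor. RSAD2, also called viperin, is a radical SAM enzyme that makes a chain-terminating nucleotide, and CMPK2 is a nucleotide kinase that supplies its substrate. LPS is a component of bacteria that is sensed by TLR4, and MSU crystals are the crystals of gout.

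The 5 *Ifit* genes lay on chromosome 19 of GRCm38, with *Ifit2* at chr19:34550694-34576419, *Ifit3* at chr19:34583531-34588731, *Ifit3b* at chr19:34607970-34613401 and *Ifit1* at chr19:34640871-34650009 on the plus strand, and *Ifit1bl1* at chr19:34592891-34601956 on the minus strand. *Rsad2* (chr12:26442746-26456452, minus strand) and *Cmpk2* (chr12:26469204-26479837, plus strand) pointed away from each other, with their starts 12752 bp apart. *Isg15* was at chr4:156199424-156200818 on the minus strand. *Herc6* (chr6:57581000-57664632) and *Usp18* (chr6:121245906-121270917) were both on the plus strand of chromosome 6 and far apart. *Ifit3* and *Ifit3b* shared 521 of their 100-base exon windows, which is 31.7% of the windows of *Ifit3* and 27.4% of those of *Ifit3b*, so the division of reads between these 2 genes is uncertain. *Ifit1* shared 3.29% of its windows with *Ifit1bl2*, and *Ifit1bl1* shared 0.51% with it. *Herc6* overlapped the transcript *Gm45193* on the same strand over 1269 exon bases. *Usp18* overlapped *Gm44148* on the opposite strand over 124 exon bases. The libraries were stranded, but whether strand was used in counting is not given in the sources used here.

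RefSeq promoter sequence of GRCm38.p6, from 250 bases before to 50 after each annotated start, was at hand for 9 of the 10 genes. These windows are shown as a description of genes that were taken by name. A link between the matches and the changes in level below was not tested. The core of the ISRE was searched as GAAANNGAAA on both strands, where N is any base, and overlapping matches were allowed. It was found for 6 of the 9 genes (66.7%), against 1079 of 27025 genes with a promoter in the same table (3.99%). The windows of *Ifit2*, *Herc6* and *Cmpk2* held no match to these letters. The stretches around the matches read 5′ to 3′ on the strand of each gene, with the matches in capitals. The sequence of *Isg15* (chr4:156200855-156200916, minus strand) held 3 overlapping matches between 78 and 57 bases before the start. That of *Ifit1* (chr19:34640765-34640833, plus strand) held 2 between 104 and 76 bases before it, and *Ifit1bl2*, the minus-strand gene whose start lay 128 bp away, shared these bases. Those of *Ifit3* (chr19:34583353-34583436) and *Ifit3b* (chr19:34607749-34607832), both on the plus strand, were the same over 84 bases with 2 matches. *Ifit1bl1* (chr19:34602043-34602092, minus strand) and *Rsad2* (chr12:26456543-26456592, minus strand) each held 1 match in the stretch shown.
Isg15: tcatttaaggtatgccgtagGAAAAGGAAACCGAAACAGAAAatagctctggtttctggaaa
Ifit1: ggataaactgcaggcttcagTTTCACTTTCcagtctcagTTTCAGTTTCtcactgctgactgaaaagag
Ifit3 and Ifit3b: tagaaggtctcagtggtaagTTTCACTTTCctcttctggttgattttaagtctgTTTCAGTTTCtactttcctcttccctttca
Ifit1bl1: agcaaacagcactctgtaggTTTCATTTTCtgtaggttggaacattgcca
Rsad2: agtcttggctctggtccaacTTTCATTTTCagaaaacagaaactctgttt

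The libraries held 25281955 to 33673552 counts each. *Ncoa6* itself, the targeted gene, had 1515 and 1405 normalized counts in *Ncoa6*-sufficient BMDMs with medium alone against 784 and 622 in the knockout. After LPS + MSU it had 1297 and 1173 against 563 and 526. Reads from the gene were therefore fewer in every *Ncoa6*-KO library but not absent. In the paper the loxP sites flank only part of the gene, while these counts cover all its exons. The counts thus do not measure how complete the deletion was. All 6 macrophage markers were detected in every library, and their summed level was lower in the knockout. In medium it was 16100 to 18600 CPM (counts scaled to a fixed library total) in *Ncoa6*-sufficient and 10700 to 12000 CPM in *Ncoa6*-KO libraries, and with LPS + MSU it was 11800 to 13000 CPM and 8920 to 9150 CPM. Most of this difference was *Lyz2*, the gene that carries Cre. Without it, the other 5 markers summed to 7160 to 7170 CPM in *Ncoa6*-sufficient and 5800 to 6580 CPM in *Ncoa6*-KO libraries in medium, and to 5900 to 5960 CPM and 5440 to 5590 CPM with LPS + MSU. *Lyz2* was lower in the knockout under both conditions (log2 fold change of -1.01 and -0.95, adjusted p = 0.0172 and 0.0142, edgeR). Dendritic cell markers summed to 30.5 to 32.6 CPM in *Ncoa6*-sufficient and 16.9 to 25.7 CPM in *Ncoa6*-KO libraries. Most of this sum was *Itgax*, with means of 758 normalized counts in *Ncoa6*-sufficient and 508 in *Ncoa6*-KO libraries in medium. With LPS + MSU its means were 998 and 598. Of the 4 dendritic markers tested, 3 were lower in the knockout in each condition, and *Zbtb46*, near the floor, was higher. *Flt3*, among the lower ones, was near the floor too, with means of 3.46 and 3.45 normalized counts with LPS + MSU. With LPS + MSU 1 of the 4 was called lower by edgeR, against 1.63% of all tested genes, and none was in medium. Monocyte markers summed to 11.9 to 12.4 CPM in *Ncoa6*-sufficient and 17.5 to 27.7 CPM in *Ncoa6*-KO libraries in medium, and to 17.5 to 29.8 CPM against 15.9 to 16.8 CPM with LPS + MSU. Osteoclast markers summed to 37.8 to 42.9 CPM against 33.8 to 34 CPM in medium, and to 55.9 to 61.0 CPM against 58.1 to 63.4 CPM with LPS + MSU. In medium 2 of the 5 tested were called lower and 1 higher by edgeR, against 1.30% and 0.573% of all tested genes. *Calcr* of this list was at 0 in every library in medium. Markers of plasmacytoid dendritic cells, which make much interferon, summed to 2.66 to 5.56 CPM, and *Cd209d* of that list was at 0 in all 8 libraries. *Siglech* of the list had at most 1.31 normalized counts in any library. In medium most of the sum was *Runx2*, with means of 78.8 normalized counts in *Ncoa6*-sufficient and 109 in *Ncoa6*-KO libraries. The part of these differences in the results below was not tested. In bulk RNA, fewer cells of a type and less RNA per cell cannot be told apart.

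*Ifit* and *Isg15* levels were lower in *Ncoa6*-KO than in *Ncoa6*-sufficient BMDMs kept in medium. *Ifit1* had 1089 and 958 normalized counts in *Ncoa6*-sufficient and 607 and 319 in *Ncoa6*-KO libraries. *Ifit2*, whose protein forms complexes with other IFIT proteins, had 3284 and 2643 against 1601 and 904. *Ifit3* had 2276 and 1690 against 953 and 595. For each of these genes the higher *Ncoa6*-KO library stayed below the lower *Ncoa6*-sufficient library, with the first *Ncoa6*-KO library always the higher one. *Ifit3b* had 272 and 233 against 138 and 81.7. *Ifit1bl1*, an *Ifit1*-like gene and the lowest of the 10 per exon length in medium, had 140 and 179 against 67.4 and 37.8. *Isg15* had 985 and 666 against 375 and 195. Here too the genotypes did not overlap.

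The log2 fold changes of *Ncoa6*-KO against *Ncoa6*-sufficient BMDMs were -1.57 for *Ifit1bl1* (SE 0.296, adjusted p = 0.0267), -1.52 for *Isg15* (SE 0.261, adjusted p = 0.0203) and -1.35 for *Ifit3* (SE 0.217, adjusted p = 0.0145). They were -1.24 for *Ifit2* (SE 0.233, adjusted p = 0.026), -1.19 for *Ifit3b* (SE 0.231, adjusted p = 0.0303) and -1.14 for *Ifit1* (SE 0.231, adjusted p = 0.0363). These p-values are from the edgeR quasi-likelihood test with Benjamini-Hochberg adjustment over all 17625 genes, and a gene was called at an adjusted p-value under 0.05. All 6 genes passed. When the counts of *Ifit3* and *Ifit3b* were added together, the change was -1.34 (adjusted p = 0.0162, edgeR).

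Among the other members, *Usp18* and *Cmpk2* were called lower, and *Herc6* and *Rsad2* were not called. *Usp18* had 710.003 and 642 normalized counts in *Ncoa6*-sufficient and 425 and 298 in *Ncoa6*-KO libraries (log2 fold change -0.90, SE 0.166, adjusted p = 0.025, edgeR). *Cmpk2* had 1358 and 1436 against 799 and 558 (-1.04, SE 0.172, adjusted p = 0.0172, edgeR). Of the 10 genes, it had the smallest log2 difference between its *Ncoa6*-sufficient libraries in medium. *Rsad2*, the neighbour of *Cmpk2*, had 2847 and 2502 against 1818 and 1210.04 (-0.82, SE 0.213, adjusted p = 0.09, edgeR). *Herc6* had 1256 and 1139.8 against 932 and 695 (-0.56, SE 0.139, adjusted p = 0.0807, edgeR). The 95% intervals of the last 2 changes were -1.29 to -0.35 for *Rsad2* and -0.86 to -0.25 for *Herc6*, and both left out 0.

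In all, 8 of the 10 genes were called lower with medium alone, where 1.30% of all tested genes were. In all 10 genes both *Ncoa6*-KO libraries lay below both *Ncoa6*-sufficient libraries, which held for 24.5% of all tested genes. The median log2 fold change of the 10 genes was -1.16, and that of all tested genes was -0.03. The count of calls rested on particular libraries. It was 0 without the first *Ncoa6*-sufficient library kept in medium, 0 without the second *Ncoa6*-KO library kept in medium and 2 (*Ifit3* and *Isg15*) without the second *Ncoa6*-sufficient library kept in medium. Without the first *Ncoa6*-KO library kept in medium it was 10. Over all tested genes, calls also fell in the fits with fewer called members and rose in the fit with more. The shift in calls was thus not particular to the 10 genes. The sign stayed negative for all 10 genes in each of these fits, in which the lone library was assumed to vary like those of the other groups. Without the second *Ncoa6*-KO library the values ran from -0.36 for *Herc6* to -1.24 for *Ifit1bl1*, and without the first they ran from -0.78 for *Herc6* to -2.08 for *Isg15*. DESeq2 called all 10 genes, where it called 1.84% of all tested genes lower. Limma-voom called 8, where it called 1.49% lower, but these were not the same 8. *Ifit1bl1* was not called by limma-voom (adjusted p = 0.0731) and *Rsad2* was (adjusted p = 0.0425).

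**Figure D1:**
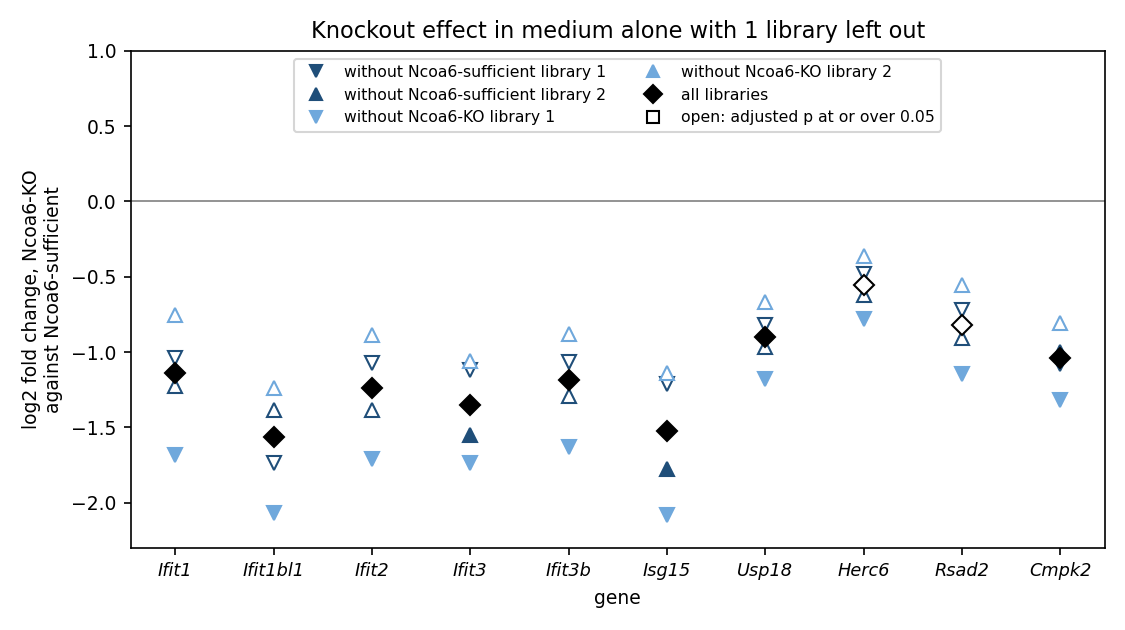
Log2 fold change of each gene in *Ncoa6*-KO against *Ncoa6*-sufficient BMDMs with medium alone, with all libraries (black diamonds) and with 1 of the 4 libraries in medium left out (triangles). Filled symbols passed an adjusted p-value of 0.05 in edgeR. All points lie below 0, and without the second *Ncoa6*-KO library every gene moves toward 0 and none is filled.

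In some groups the 10 genes deviated together between the libraries. In the *Ncoa6*-KO cells kept in medium, all 10 were higher in the first library than in the second, with a median log2 ratio of 0.71 and a range of 0.42 to 0.94. Over the 11219 genes whose normalized counts averaged 50 or more, the ratios ran from -0.40 at the 5th to 0.45 at the 95th percentile. In *Ncoa6*-sufficient BMDMs with LPS + MSU all 10 ratios were above 0 too, with a median of 0.27. The signs were mixed in the other groups. With medium alone, *Ncoa6*-sufficient BMDMs had 8 ratios above 0 and 2 below, with a median of 0.19. *Ncoa6*-KO BMDMs with LPS + MSU had 7 above and 3 below, with a median of 0.04. The members are thus not independent readings of a group. The first *Ncoa6*-KO library in medium also differed from the second in its stromal cell markers, which summed to 5.52 CPM against 19.4 CPM. The same held with LPS + MSU, where the first *Ncoa6*-KO library had 4.85 CPM and the second 19.5 CPM, while the *Ncoa6*-sufficient libraries had 15.7 to 20.7 CPM. A link between these markers and the 10 genes was not tested.

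**Figure D2:**
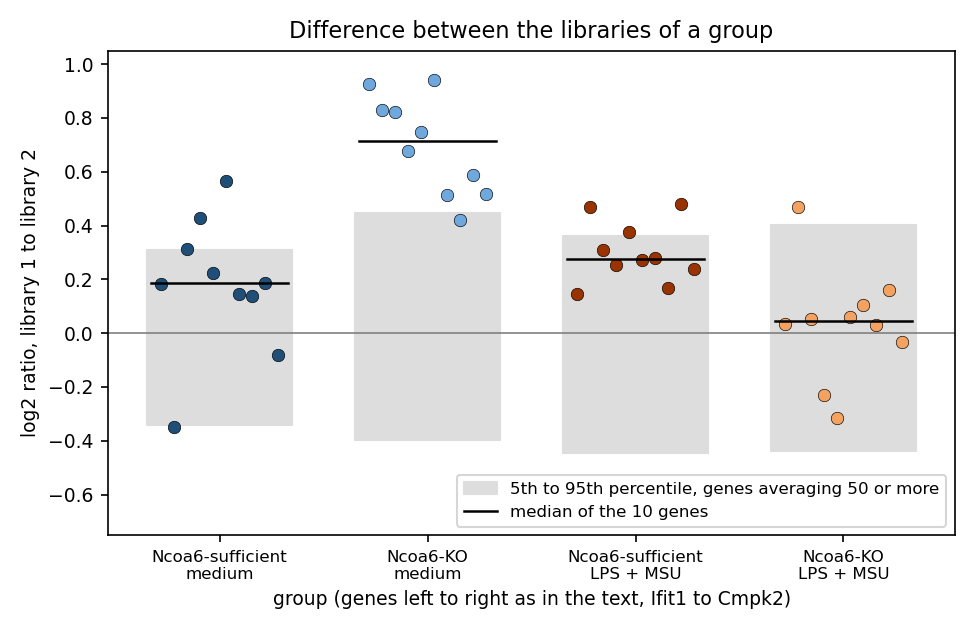
Log2 ratio of the first to the second library of each group for the 10 genes, as points from *Ifit1* at the left to *Cmpk2* at the right of each group. The bar is the median of the 10 genes and the grey band spans the 5th to the 95th percentile of the genes whose normalized counts averaged 50 or more. The points of *Ncoa6*-KO BMDMs in medium sit between 0.42 and 0.94, all but *Herc6* above the band.

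With LPS + MSU, all 10 genes rose steeply in both genotypes. In *Ncoa6*-sufficient BMDMs *Rsad2* rose to 470767 and 337422 normalized counts and *Cmpk2* to 222941 and 188990. *Ifit2* rose to 201842 and 162917, *Ifit1* to 85851 and 77509, and *Ifit3* to 62810 and 52654. *Usp18* reached 28319 and 23361, *Isg15* 26745 and 22156, *Ifit1bl1* 26187 and 18935, *Herc6* 18983 and 16914, and *Ifit3b* 10699.5 and 8246. The lowest LPS + MSU library was far above the highest library in medium for each gene. *Rsad2* alone took 0.893% to 1.23% of all counts in the LPS + MSU libraries. The 10 genes together took 3.02% and 2.45% of the counts in *Ncoa6*-sufficient BMDMs with LPS + MSU, against 0.0597% and 0.0514% with medium alone. In the knockout they took 2.49% and 2.46% with LPS + MSU, against 0.033% and 0.0215% with medium alone.

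The rise in *Ncoa6*-sufficient BMDMs was largest for *Rsad2* (log2 fold change 7.24, 151-fold), *Cmpk2* (7.20, 147-fold) and *Ifit1bl1* (7.15, 142-fold). *Ifit1* (6.32, 79.8-fold) and *Ifit2* (5.94, 61.5-fold) followed, then *Usp18* (5.26, 38.2-fold) and *Ifit3b* (5.23, 37.4-fold). The smallest rises were those of *Isg15* (4.89, 29.6-fold), *Ifit3* (4.86, 29.1-fold) and *Herc6* (3.91, 15.0-fold). In *Ncoa6*-KO BMDMs, *Cmpk2* rose most (8.08, 269.8-fold), then *Ifit1bl1* (7.97, 250.2-fold) and *Rsad2* (7.78, 220.5-fold), and *Herc6* again rose least (4.27, 19.3-fold). *Isg15* rose by 6.24 (75.6-fold) and *Ifit3* by 6.11 (69.3-fold) there. All 10 genes were called in each genotype by edgeR, with adjusted p-values of at most 6.74e-08, where 24.7% of all tested genes were called higher for *Ncoa6*-sufficient cells and 25.2% for *Ncoa6*-KO cells. LPS and MSU were not given apart in these libraries, so their shares in the rise cannot be told apart.

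**Figure D3:**
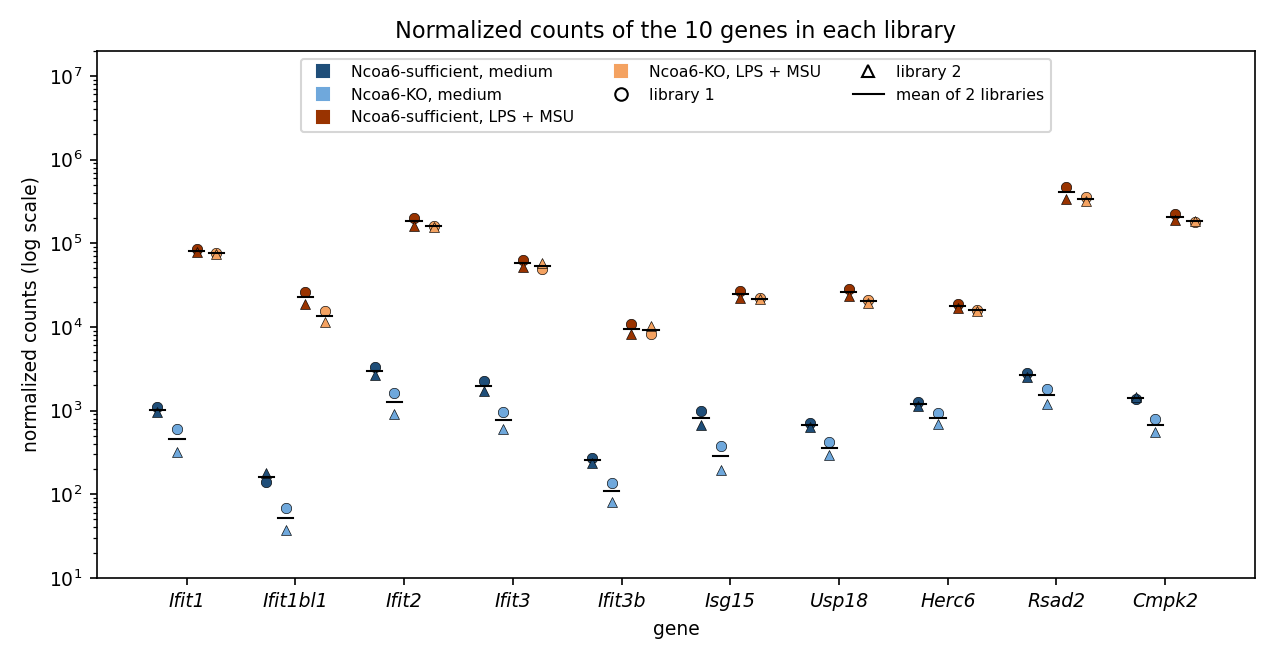
Normalized counts (log scale) of the 10 genes in each of the 8 libraries, with circles for library 1, triangles for library 2 and bars for the group means. In medium every *Ncoa6*-KO point is below both *Ncoa6*-sufficient points of the gene. With LPS + MSU all points lie at 8246 counts or more, and the genotypes lie closer together than in medium. *Ifit1bl1* is the furthest apart there, with a log2 fold change of -0.75.

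Between genotypes with LPS + MSU, none of the 10 genes passed the test. *Ifit1* had 85851 and 77509 normalized counts in *Ncoa6*-sufficient and 77018 and 75180.5 in *Ncoa6*-KO libraries (log2 fold change -0.10, SE 0.216, adjusted p = 0.863, edgeR). *Ifit2* had 201842 and 162917 against 162173 and 156355 (-0.20, adjusted p = 0.718, edgeR). *Ifit3* had 62810 and 52654 against 49501 and 58075 (-0.10, adjusted p = 0.858, edgeR). The *Ifit3* libraries of the genotypes overlapped, while those of *Ifit1* and *Ifit2* lay barely apart. *Ifit3b* overlapped too, with 8282 and 10296 in *Ncoa6*-KO libraries (-0.03, adjusted p = 0.966, edgeR). *Isg15* had 22195 and 21262 there (-0.17, adjusted p = 0.778, edgeR), the higher of which was just above the lower *Ncoa6*-sufficient library. *Rsad2* had 352572 and 315759 (-0.27, adjusted p = 0.56, edgeR), again with overlap. *Cmpk2* (181363 and 185694) and *Herc6* (15868 and 15534) did not overlap, with log2 fold changes of -0.17 and -0.19 (adjusted p = 0.667 and 0.512, edgeR).

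The largest difference with LPS + MSU was that of *Ifit1bl1*, with 15632 and 11285 normalized counts in *Ncoa6*-KO against 26187 and 18935 in *Ncoa6*-sufficient libraries. Its log2 fold change was -0.75 (SE 0.21, 95% interval -1.21 to -0.28) at an unadjusted p of 0.00476 and an adjusted p of 0.0868 in edgeR. *Usp18*, with 20845 and 19389 against 28319 and 23361, was the other gene with an unadjusted p under 0.05 (-0.36, unadjusted p = 0.0379, adjusted p = 0.251, edgeR). For both genes every *Ncoa6*-KO library was below both *Ncoa6*-sufficient libraries. *Ifit1bl1* counts amounted to 30.5% and 24.4% of those of *Ifit1* in *Ncoa6*-sufficient and to 20.3% and 15.0% in *Ncoa6*-KO libraries with LPS + MSU. In all, 0 of 10 genes were called by edgeR, DESeq2 or limma-voom, and 1.63% of all tested genes were called lower by edgeR. At an unadjusted edgeR p under 0.05, 2 of 10 were lower, as were 8.16% of all tested genes. Without the filter on low counts, edgeR called these 2 genes after adjustment, and 804 genes lower over all. In 6 of 10 genes the genotypes did not overlap in this direction, as in 22.7% of all tested genes. The median log2 fold change was -0.18, against 0.00 over all tested genes. Without the second *Ncoa6*-KO library in medium, 1 gene, *Ifit1bl1*, was called (adjusted p = 0.0477, edgeR). A p-value over the limit does not show that the genotypes were alike here. The 95% intervals still included log2 fold changes of -0.69 for *Isg15* and *Ifit2*, -0.73 for *Rsad2* and -0.58 for *Ifit1*.

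**Figure D4:**
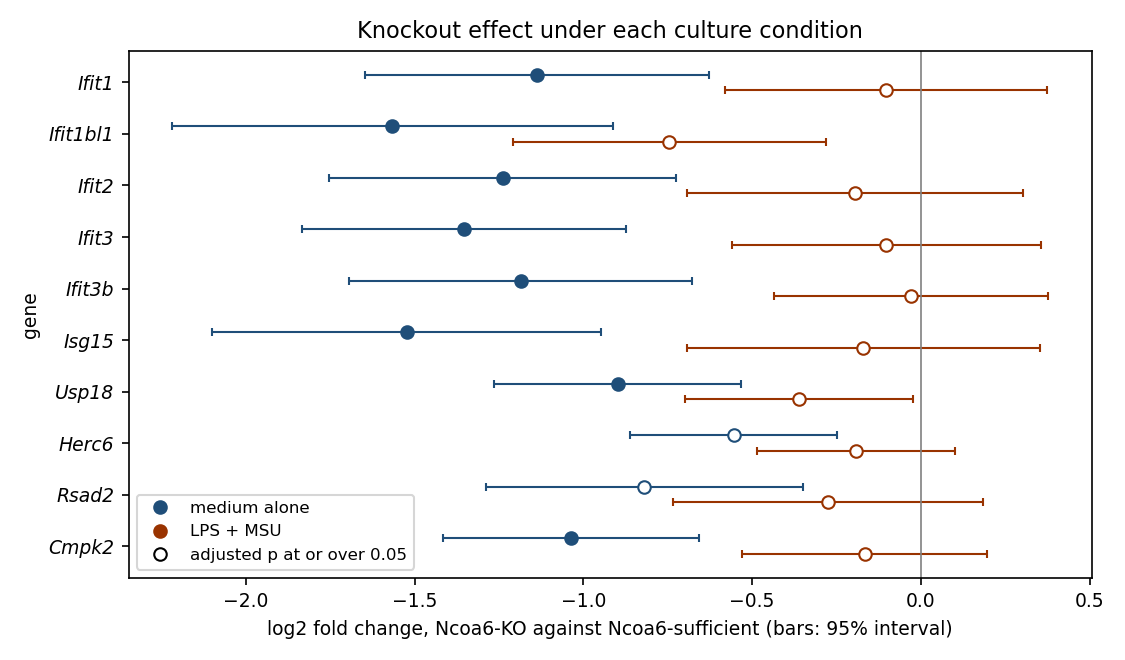
Log2 fold change in *Ncoa6*-KO against *Ncoa6*-sufficient BMDMs with medium alone (blue) and with LPS + MSU (red), with 95% intervals, filled where the adjusted p-value was under 0.05 in edgeR. The values in medium run from -1.57 to -0.56 and those with LPS + MSU from -0.75 to -0.03.

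Whether the knockout effect differed between the culture conditions was tested as an interaction, which uses the same 8 libraries as the comparisons above. The difference was above 0 for all 10 genes, that is, the effect was less negative with LPS + MSU. It was 1.35 on the log2 scale for *Isg15* (95% interval 0.58 to 2.13, adjusted p = 0.498), 1.25 for *Ifit3* (adjusted p = 0.447) and 1.16 for *Ifit3b* (adjusted p = 0.485). For *Ifit1* and *Ifit2* it was 1.04 each (adjusted p = 0.614 and 0.625), for *Cmpk2* 0.87 (adjusted p = 0.536) and for *Ifit1bl1* 0.82 (adjusted p = 0.826), all from edgeR. *Rsad2* (0.55), *Usp18* (0.54) and *Herc6* (0.36) had the smallest differences. No member was called by edgeR or limma-voom, and 0% of all tested genes were called by edgeR. DESeq2 called 2 members, *Ifit3* and *Ifit3b*, where it called 0.136% of all tested genes in this direction. At an unadjusted edgeR p under 0.05 there were 8 members, all but *Rsad2* and *Herc6*, where 4.11% of all tested genes were in this direction. The call depended on the fit. Without the filter on low counts edgeR called 7 members, and 269 genes over all in either direction. With a term for the replicate number within each genotype it called 9 members, and 444 genes over all. The labels do not say what a replicate number shares. Leaving out the first *Ncoa6*-KO library in medium brought 1 call, that of *Ifit1*.

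The order of the genes by level was compared per kilobase of annotated exon. In *Ncoa6*-sufficient BMDMs with medium alone, *Ifit3* and *Isg15* were highest, at means of 1137 and 1092 normalized counts per kilobase. Their libraries overlapped, so the order of these 2 genes is not fixed. *Ifit2* (755), *Rsad2* (617), *Ifit1* (385), *Cmpk2* (336) and *Usp18* (242) followed without overlap between neighbours. *Herc6* (129) and *Ifit3b* (126) overlapped, and *Ifit1bl1* was lowest at 70.6. With LPS + MSU the order changed, with *Rsad2* highest at 93217 normalized counts per kilobase and *Cmpk2* (49475) and *Ifit2* (46442) next with overlapping libraries. *Ifit3* (33084), *Isg15* (32342) and *Ifit1* (30753) overlapped with their neighbours, as did *Ifit1bl1* (9983) and *Usp18* (9262). *Ifit3b* (4736) and *Herc6* (1932) were lowest.

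For *Ncoa6*-KO cells in medium the order began with *Ifit3* (444 normalized counts per kilobase), *Isg15* (377), *Rsad2* (349) and *Ifit2* (319), each overlapping with the next. *Ifit1* (174), *Cmpk2* (163) and *Usp18* (129) overlapped in the same way, and *Herc6* (87.6), *Ifit3b* (54.8) and *Ifit1bl1* (23.3) closed the order without overlap. With LPS + MSU *Rsad2* (77085), *Cmpk2* (44086) and *Ifit2* (40556) led in the knockout with no overlap between neighbours. *Usp18* (7210) was above *Ifit1bl1* (5955) there, whose libraries overlapped those of *Ifit3b* (4644). *Usp18* and *Ifit1bl1* did not overlap, and their order was the other way round from the means in *Ncoa6*-sufficient BMDMs. The shared exon sequence of *Ifit3* and *Ifit3b* affects their places in these orders. The counts of *Ifit3b* were 12.0% to 17.7% of those of *Ifit3* over the 8 libraries. The counts of *Rsad2* were 170.0% to 228% of those of *Cmpk2*.

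Of the remaining ISG15 machinery, the activating enzyme gene *Uba7* and the conjugating enzyme gene *Ube2l6* were called lower in the knockout in medium. Of all tested genes, 1.30% were. *Uba7* had 2338 and 2421 normalized counts in *Ncoa6*-sufficient and 1661 and 1228 in *Ncoa6*-KO libraries (log2 fold change -0.72, adjusted p = 0.028, edgeR). *Ube2l6* had 2791 and 2171 against 1702 and 1297 (-0.73, adjusted p = 0.0462, edgeR). *Trim25* and *Arih1*, which encode ubiquitin ligases, had changes of 0.01 and 0.13 (adjusted p = 1 and 0.603, edgeR). With LPS + MSU none of these 4 genes was called between genotypes by edgeR, and none had an unadjusted p under 0.05. All 4 were called higher with LPS + MSU than with medium in both genotypes, from 0.70 for *Arih1* to 3.08 for *Uba7* on the log2 scale in *Ncoa6*-sufficient BMDMs. Of all tested genes, 24.7% were called higher in *Ncoa6*-sufficient cells and 25.2% in *Ncoa6*-KO cells. The further *Ifit* gene *Ifit1bl2* was low, at 12.8 and 18.1 normalized counts in *Ncoa6*-sufficient and 13.2 and 9.66 in *Ncoa6*-KO libraries with medium alone (-0.39, adjusted p = 0.719, edgeR). It rose to between 277 and 329.7 with LPS + MSU.

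Among 17 genes of the interferon signalling route, from *Tlr4* and *Ifnb1* to the transcription factors, 16 could be tested and *Ifna4* was at 0 in all libraries. In medium, 2 were called between genotypes, both lower in the knockout, against 1.30% of all tested genes called lower. *Irf7*, a transcription factor that drives interferon genes and is itself interferon-inducible, had 2857 and 2281 normalized counts in *Ncoa6*-sufficient and 1101 and 680 in *Ncoa6*-KO libraries (log2 fold change -1.53, SE 0.201, adjusted p = 0.00568, edgeR). *Stat2* had 4150 and 3951 against 2934 and 1968 (-0.72, adjusted p = 0.0464, edgeR). *Irf9*, whose product binds DNA in the complex with STAT2, had a change of -0.44 and was not called (adjusted p = 0.0998, edgeR). *Ifnb1*, the interferon-β gene, had between 0.751 and 1.39 normalized counts in the libraries in medium, too few for a comparison. With LPS + MSU it had 334 and 253 in *Ncoa6*-sufficient and 204 and 157 in *Ncoa6*-KO libraries. The genotypes did not overlap, and the change of -0.70 was not called (95% interval -1.14 to -0.26, adjusted p = 0.0867, edgeR). None of the 16 genes was called between genotypes with LPS + MSU by edgeR, while 4 had an unadjusted p under 0.05, as did 17.4% of all tested genes in either direction. Log2 fold changes there were -0.14 for *Stat2*, -0.11 for *Irf9* and -0.39 for *Irf7*.

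A list of 27 other antiviral interferon-stimulated genes, such as the *Oas* and *Mx* genes, was counted in the same way. With medium alone 16 of the 27 were called lower in *Ncoa6*-KO BMDMs by edgeR, against 1.30% of all tested genes, and the median log2 fold change was -0.91, against -0.03 over all tested genes. The largest called changes in edgeR were those of *Zbp1* (-2.05, adjusted p = 0.0178), a sensor of Z-form nucleic acid, and *Ifi44* (-1.70, adjusted p = 0.0464). Next were *Oasl1* (-1.55, adjusted p = 0.0098), which encodes a 2′-5′-oligoadenylate synthetase-like protein, and *Mx1* (-1.53, adjusted p = 0.00593), which encodes a GTPase. *Rtp4* (-1.48, adjusted p = 0.0178), *Oasl2* (-1.34, adjusted p = 0.0292), *Oas2* (-1.04, adjusted p = 0.0202) and *Dhx58* (-1.01, adjusted p = 0.025), which encodes the RNA sensor LGP2, followed, all in edgeR. *Mx1* had 751 and 809 normalized counts in *Ncoa6*-sufficient and 334 and 205 in *Ncoa6*-KO libraries. The 2 *Ncoa6*-KO libraries of *Mx1* thus stood in the same order as those of the 10 genes. How far the calls rest on particular libraries was not examined for this list, the signalling genes or the ISG15 machinery. With LPS + MSU 0 of the 27 were called by edgeR, 5 were lower at an unadjusted p under 0.05, against 8.16% of all tested genes, and the median log2 fold change was -0.28, against 0.00. In each genotype 26 of the 27 were called higher with LPS + MSU than with medium, against 24.7% of all tested genes in *Ncoa6*-sufficient cells and 25.2% in *Ncoa6*-KO cells.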

How the data were processed

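RNA-seq of mouse BMDMs in 4 groups of 2 libraries was analysed. The authors sequenced stranded poly(A) libraries, used STAR 2.7.3a for alignment to GRCm38 (annotation release 101) and RSEM 1.3.3 for quantification. The deposited values are the authors' expected counts, not normalized, in 1 table. The study's human libraries were not analysed here. Expected counts were rounded. Only genes whose counts added up to 10 or more across libraries were tested. edgeR 4.0.16 (R 4.3.3) was used with TMM factors and a quasi-likelihood fit of the 4 group means, without a replicate term, with 4 residual degrees of freedom. P-values were adjusted over all tested genes by Benjamini-Hochberg. An exact permutation test of 2 libraries against 2 cannot give a p below 0.333. The methods name DESeq2 for these libraries. It was run as an alternative (DESeq2 1.42.0), as were DESeq2 size factors, filterByExpr, no filter, limma-voom (limma 3.58.1), replicate blocks, a fit of only the libraries compared, the summing of *Ifit3* and *Ifit3b*, and leaving out each library. Libraries of a group differed by more than sampling noise. Gene positions, exon lengths and overlaps came from GENCODE (GRCm38), another release of the annotation, and promoters from RefSeq.

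All 10 genes are reported in each comparison, as are *Ifit1bl2* and the ISG15 machinery. Of the interferon signalling and antiviral lists, *Ifnb1*, *Stat2*, *Irf7* and *Irf9* are named, along with up to 8 genes per list with the largest change among those called between genotypes whose normalized counts averaged 50 or more. The 5 genes closest in pattern were also named. Marker lists are given as sums, with a few of their genes named. One gene that the rule names is not reported here. The members, lists and rules were chosen with earlier results of these data known, so the lists are no independent evidence.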

Additional observations from a re-analysis of the deposited data

How the results depend on the processing

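All 10 genes were called higher with LPS + MSU in both genotypes under every alternative that kept them apart, and the summed *Ifit3* and *Ifit3b* were called too. For the knockout effect with medium alone, between 7 and 10 genes were called under the alternatives other than leaving out a library (7 of 9 with *Ifit3* and *Ifit3b* summed), and from 0 to 10 when 1 library was left out. With LPS + MSU, 2 genes (*Ifit1bl1* and *Usp18*) were called without the filter on low counts, and 0 to 1 with a library left out. For the difference of the knockout effects, DESeq2 called 2 genes and the fit without the filter 7, and 0 to 1 were called with a library left out. The cause was not tested. The knockout effect with LPS + MSU ran from -0.24 to 0.0195 for *Ifit3* and from -0.22 to 0.16 for *Ifit3b* when 1 library was left out, and was positive for both without *Ncoa6*-sufficient library 1 of that condition and for *Ifit3b* (0.10) without *Ncoa6*-KO library 1 of it.

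With the replicate number as a replicate block across all groups, 10 genes were called lower with medium alone, 2 with LPS + MSU and 5 for the difference. With a replicate block within each genotype these counts were 10, 2 and 9, and the change of *Ifit1* with LPS + MSU turned to 0.022. The labels do not say what a number shares. Deviations of same-numbered libraries correlated at 0.31 and 0.369 within a genotype and at 0.0523 to 0.199 between genotypes. The highest values were those within a genotype, so shared mice there are possible but not stated. The main fit leaves the numbers out, and its test of the difference ignores any such pairing. Over all genes, calls went from 331 to 1023 (all groups) and 1530 (within genotype) with medium alone, from 632 to 1532 and 2000 with LPS + MSU, and from 0 to 86 and 444 for the difference. Without the filter they were 1152, 1611 and 269, DESeq2 called 30 for the difference, and a fit of only the libraries compared called 347 with LPS + MSU. With 1 library left out they ran from 22 to 351, 49 to 765 and 0 to 16. DESeq2 size factors moved the median of all genes by 0.11 for LPS + MSU against medium in *Ncoa6*-sufficient BMDMs and changed no call of the 10 genes. With 2 libraries a group, the spread rests on few mice, and the depth did not limit these genes, which had at least 37.8 normalized counts in every library.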

Other observations

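The 5 genes outside the 10 whose log2 levels followed the mean of the members most closely over the 8 libraries were *Igtp* (Pearson r = 0.999854), *Gbp5* (0.99975), *Gbp7* (0.999731), *Tdrd7* (0.999631) and *Gm4070* (0.999446), out of 11209 genes whose normalized counts averaged 50 or more. The 8 libraries fall into an LPS + MSU and a medium cluster, and the r is a description of likeness that is set mainly by that contrast. In *Ncoa6*-KO against *Ncoa6*-sufficient BMDMs with medium alone, the log2 fold changes were -1.47 for *Gbp5* (adjusted p = 0.0132), -1.01 for *Gbp7* (adjusted p = 0.025), -0.86 for *Igtp* (adjusted p = 0.0354), -0.79 for *Gm4070* (adjusted p = 0.0259) and -0.38 for *Tdrd7* (adjusted p = 0.0878) in edgeR. None of the 5 was called between genotypes with LPS + MSU by edgeR.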
